A study of Mus musculus with 48 samples.

Results

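The genes described are the proteasome subunits, taken as the genes named Psma, Psmb, Psmc, Psmd or Psme followed by a number on one-colour Agilent arrays of mouse liver. Names of pseudogenes and of the interacting protein Psmc3ip were left out, and each gene was read by the brightest of its probes. The rule found 43 of the 37074 gene names on the array. It could be followed in 42 of them, which were well above background on all 48 arrays, among 20486 genes kept. The exception was Psmb11, the catalytic subunit of the thymoproteasome, whose probe was not well above background on any array. Psme2 is not named on the array, and Psme2b, which is known as a retrogene copy of it, may share signal with it.

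The arrays hold liver RNA of 48 male mice, 1 array per mouse and 6 mice in each of 8 groups. p110α hep-/- mice are albumin-Cre+/- p110α flox/flox animals on a C57BL/6J background, and p110α hep+/+ mice are their floxed littermates without Cre. The study describes the loss of p110α, the PI3Kα catalytic subunit, as specific to hepatocytes. It tested the deletion by PCR on whole tissues, and reports that p110α protein was lacking in western blots of liver. From 12 weeks of age, mice of each genotype were given for 12 weeks a CTRL diet or a HFD with 60% of energy from fat. They were fed ad libitum or fasted for 24 h, and all were killed at ZT16. The series asks how hepatocyte p110α signalling shapes liver gene expression in these states.

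The proteasome degrades proteins that carry ubiquitin. Its 20S core is a barrel of α rings, which gate the entrance, around β rings, of which the subunits β1, β2 and β5 cut the substrate. The 19S regulatory particle caps the core: its ring of ATPases unfolds substrates and its other subunits bind ubiquitin chains and remove them. Interferons exchange the catalytic subunits for the inducible β1i, β2i and β5i and raise the PA28αβ activator, giving the immunoproteasome that makes peptides for MHC class I. In liver, fasting and insulin are known to shift protein breakdown.

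A level is given here as the log2 of the normalized median signal of a probe, and a difference as the fitted difference of 2 group means on the log2 scale, in which arrays are weighted by their quality. Calls come from limma, where the p adjusted over all probes kept did not exceed 0.05. Levels of different probes cannot be set against each other. In whole liver, a change of RNA per cell and a change in the share of a cell type cannot be told apart.

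The 4 genes that the results below turn on most are shown with the 250 bases before their start (RefSeq, GRCm38.p6, 5′ to 3′ on the strand of the gene). Capitals mark matches on either strand to the CCAAT box (CCAAT, read as ATTGG on the other strand) or to the core of the antioxidant response element (TGACNNNGC), the element that the factor NRF1 is known to use in proteasome genes.
Psme3, chr11:101315963-101316212, strand +: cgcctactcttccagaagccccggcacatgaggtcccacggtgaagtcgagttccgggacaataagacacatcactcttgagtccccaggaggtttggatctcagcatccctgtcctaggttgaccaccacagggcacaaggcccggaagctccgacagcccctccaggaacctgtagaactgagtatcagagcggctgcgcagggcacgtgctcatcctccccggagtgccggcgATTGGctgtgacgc
Psmb9, chr17:34187331-34187580, strand -: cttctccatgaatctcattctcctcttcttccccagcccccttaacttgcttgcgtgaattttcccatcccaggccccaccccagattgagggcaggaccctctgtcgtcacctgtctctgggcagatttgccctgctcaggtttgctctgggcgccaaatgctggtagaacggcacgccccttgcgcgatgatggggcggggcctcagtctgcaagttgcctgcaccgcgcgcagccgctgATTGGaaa
Psmd14, chr2:61711444-61711693, strand +: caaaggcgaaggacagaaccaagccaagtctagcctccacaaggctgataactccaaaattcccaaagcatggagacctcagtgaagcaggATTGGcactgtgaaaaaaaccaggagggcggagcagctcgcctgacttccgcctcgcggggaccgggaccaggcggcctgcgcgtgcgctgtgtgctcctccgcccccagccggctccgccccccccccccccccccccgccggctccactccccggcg
Psmb5, chr14:54617996-54618245, strand -: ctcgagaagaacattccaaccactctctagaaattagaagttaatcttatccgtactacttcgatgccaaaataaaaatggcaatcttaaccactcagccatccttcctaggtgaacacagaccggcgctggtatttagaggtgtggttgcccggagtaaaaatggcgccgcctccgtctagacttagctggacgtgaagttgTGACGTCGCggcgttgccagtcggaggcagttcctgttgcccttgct
Promoters from 250 bases before to 50 after the start were found for 35 of the 42 measured genes, 37 promoters in all. TGACNNNGC stood in those of 6 genes (17.1%), namely Psmb5, Psmb6, Psmc6, Psmd9, Psmd12 and Psme4, against 12.4% of all 32851 promoters of the table. CCAAT stood in those of 13 genes (37.1%), against 37.4%. The interferon-stimulated response element, searched on both strands as GAAA, any 2 bases and GAAA again, stood in those of 4 genes (11.4%), Psmb3, Psmd4, Psmd9 and Psme1, against 3.44%. Where 2 motifs matched the same bases, both were counted. The Psmb9 promoter is shared with Tap1, the peptide transporter gene on the opposite strand, whose start lies 225 bases away. Matches are letters only, and no binding was measured.

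Between 50.1% and 57.4% of probes were well above background on each array, no spot was saturated, and arrays of the same group correlated at 0.989 to 0.997. Each of the 6 slides held 1 array of every group, and slides were washed in 2 batches of 3. The probe of Pik3ca, which codes for p110α, was not lower in p110α hep-/- mice in any of the 4 states, and its difference was 0.39 in fed mice on CTRL diet. Whether it lies in the deleted exons is not given in the sources used here, so it gives no check of the labels. The hepatocyte marker albumin was well above background in every group. Its differences of -0.02 to 0.03 in the 12 comparisons are no check, because quantile normalization gives the brightest probes nearly equal values on all arrays. Replicate 3 of the fed p110α hep-/- mice on HFD had the lowest array weight, 0.35, and without it 117 of the 119 calls given below were kept and 4 were added.

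Over the 12 comparisons of 2 groups, 119 of 504 tests of proteasome genes were called (23.6%), 51 higher and 68 lower, against 25.4% of the tests of all genes. The number of calls was thus near the background, and 64 of the 119 were kept with both other scalings used below. At least 1 call was made for 36 of the 42 genes. The share of all genes with at least 1 call was not computed, so this count has no background. The range of the 8 group means had a median of 0.24 over the 31 core genes (the 20S and 19S subunits without Psma8, the inducible subunits and the assembly chaperones), against 0.39 over all genes kept. Only Psme3, at 2.19, and Psmb9, at 1.20, had a range above 1. Psmc1, Psmd2, Psmd6, Psmb1, Psmb10 and Psma8 were not called in any comparison.

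The core genes were described by their mean log2 level on each array. Its lowest, median and highest values were 13.34, 13.37 and 13.44 in fed p110α hep+/+ mice on HFD. They were 13.14, 13.25 and 13.31 in fed p110α hep+/+ mice on CTRL diet, and 13.10, 13.15 and 13.20 in fed p110α hep-/- mice on CTRL diet. The HFD group was thus above the other fed p110α hep+/+ group on every array, while the p110α hep-/- group overlapped with the latter, but with median centring or scaling to the 75th percentile the 2 diets overlapped too. The arrays of the other 5 groups lay between 13.15 and 13.42. Of the 31 core genes, 22 had their highest group mean in fed p110α hep+/+ mice on HFD (18.4% of all genes did), and 19 had their lowest in fed p110α hep-/- mice on CTRL diet (9.77% of all genes).

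**Figure D1:**
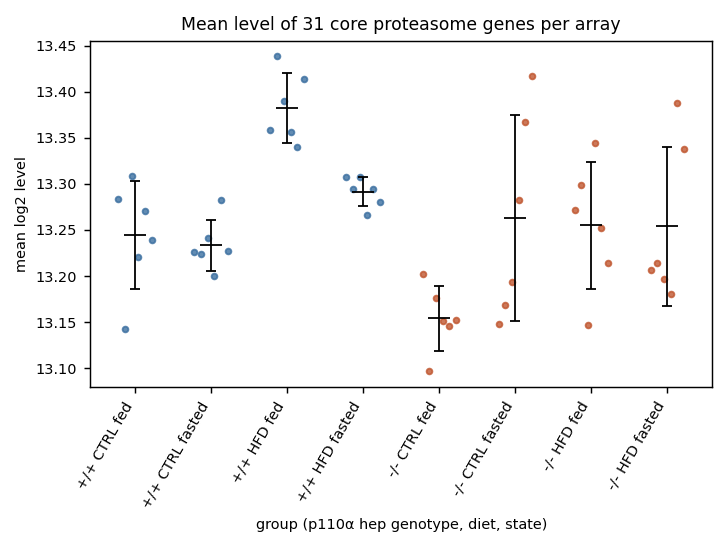
Mean log2 level of the 31 core proteasome genes (y axis) on each array (point) in the 8 groups (x axis, p110α hep genotype, diet and nutritional state), with the group mean and SD over 6 mice as bars. Fed p110α hep+/+ mice on HFD had the highest group mean (13.38) and fed p110α hep-/- mice on CTRL diet the lowest (13.15), although with median centring or scaling to the 75th percentile the highest mean was in fasted p110α hep-/- mice on CTRL diet.

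The lowest group did not depend on the scaling of the arrays, and the highest did. With median centring 20 core genes, and with the processed signal scaled to the 75th percentile 18, were lowest in fed p110α hep-/- mice on CTRL diet. With these scalings 10 and 7 core genes were highest in fed p110α hep+/+ mice on HFD, and 16 and 16 in fasted p110α hep-/- mice on CTRL diet.

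In fed p110α hep+/+ mice, HFD raised 15 of 42 proteasome genes (12.4% of all genes were called higher) and lowered 1, Psme3 (11.6% lower). The arrays of the 2 diets did not overlap for 10 genes higher on HFD (5.52% of all genes) and for none lower (3.99%). The median difference was 0.10, against -0.01 over all genes, and 33 of 42 differences were above 0. With median centring 7 were called higher and 1 lower, with a median of 0.05, and with the 75th percentile 5 and 1, with a median of 0.03. The shares called higher were then 16.7% and 11.9%, against 11.1% and 11% of all genes, where quantile normalization gave 35.7%. In fed p110α hep-/- mice 7 rose on HFD (5.91%) and 0 fell (6.43%), with 2 falling at an unadjusted p under 0.05 and 2 genes higher with no overlap (1.71%, and 0 against 2.19% lower). With median centring 1 rose there and with the 75th percentile 5, and 0 fell. In fasted p110α hep+/+ mice 2 rose (8.99%) and 2 fell (7.05%), and 3 were higher (3.57%) and 2 lower (2.29%) with no overlap. There the median of 0.06 became 0.00 with median centring, with 2 genes higher and 3 lower, and -0.02 with the 75th percentile, with 1 higher and 6 lower. In fasted p110α hep-/- mice 0 rose (5.67%; 3 at an unadjusted p under 0.05) and 1 fell (5.17%), or 3 with either of the other scalings, and no gene was without overlap (2.14% of all genes higher and 1.96% lower).

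Loss of p110α in fed mice went the other way. On CTRL diet 10 genes were lower in p110α hep-/- mice (10.7% of all genes) and 1 higher (11%), with a median of -0.08, and the arrays did not overlap for 1 lower gene (3.32%) and 0 higher ones (2.89%). On HFD 14 were lower (16.4%) and 3 higher (16.6%), with a median of -0.11 and 36 of 42 differences below 0. Signs over all genes were not counted beside the latter. The arrays did not overlap for 5 lower (7.03%) and 2 higher genes (5.97%). The medians kept their sign with median centring (-0.04 and -0.08) and with the 75th percentile (-0.06 and -0.04), with 4 and 7 genes lower in the first and 6 and 6 in the second, beside 1 and 2, and 1 and 3, higher. In fasted mice on HFD 13 were lower (17.7%) and 4 higher (19.2%), and on CTRL diet 2 were lower (12.3%) and 2 higher (12.5%), or 4 higher and 2 lower with each of the other scalings. With no overlap, 3 were lower (7.54%) and 0 higher (6.45%) on HFD, and 0 lower (5.02%) and 1 higher (5.24%) on CTRL diet. The share of proteasome genes called lower was 23.8% in fed mice on CTRL diet, 33.3% in fed and 31% in fasted mice on HFD. With median centring these shares were 9.52%, 16.7% and 28.6%, against 10.2%, 15.3% and 17% of all genes, and with the 75th percentile 14.3%, 14.3% and 21.4%, against 10.5%, 14.8% and 17.2%. In fed mice they were therefore near the background with the other scalings. Replicate 3 of the fed p110α hep-/- mice on HFD moved none of these counts by over 1.5 times.

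With quantile normalization fasting gave no single direction. In p110α hep+/+ mice on CTRL diet 3 genes rose (16.0% of all genes) and 5 fell (16.6%), and on HFD 2 rose (13.8%) and 13 fell (14.8%). In p110α hep-/- mice on CTRL diet 8 rose (16.4%) and 2 fell (19.2%), and on HFD 4 rose (14.0%) and 5 fell (14.7%). Without overlap between fed and fasted arrays, 1 rose (5.82%) and 0 fell (5.99%), 2 rose (5.19%) and 5 fell (5.66%), 3 rose (7.21%) and 0 fell (8.41%), and 0 rose (3.69%) and 1 fell (4.75%) in the same order. The splits by call depended on the scaling. With median centring they were 8 higher and 0 lower, 3 and 4, 21 and 2, and 8 and 2 in the same order, and with the 75th percentile 8 and 1, 3 and 3, 21 and 2, and 8 and 3. The shares of all genes called higher and lower were 18.7% and 13%, 15.4% and 13.2%, 20% and 15.3%, and 15.1% and 13% with median centring. With the 75th percentile they were 20% and 14%, 17.9% and 13.2%, 20.4% and 17.8%, and 15.7% and 13.7%. In p110α hep-/- mice on CTRL diet 50% of proteasome genes were thus higher with either scaling. The median in p110α hep+/+ mice on CTRL diet turned from -0.03 to 0.07 with both. None of the 119 calls turned direction with either scaling, and 72 were kept with median centring and 74 with the 75th percentile.

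**Figure D2:**
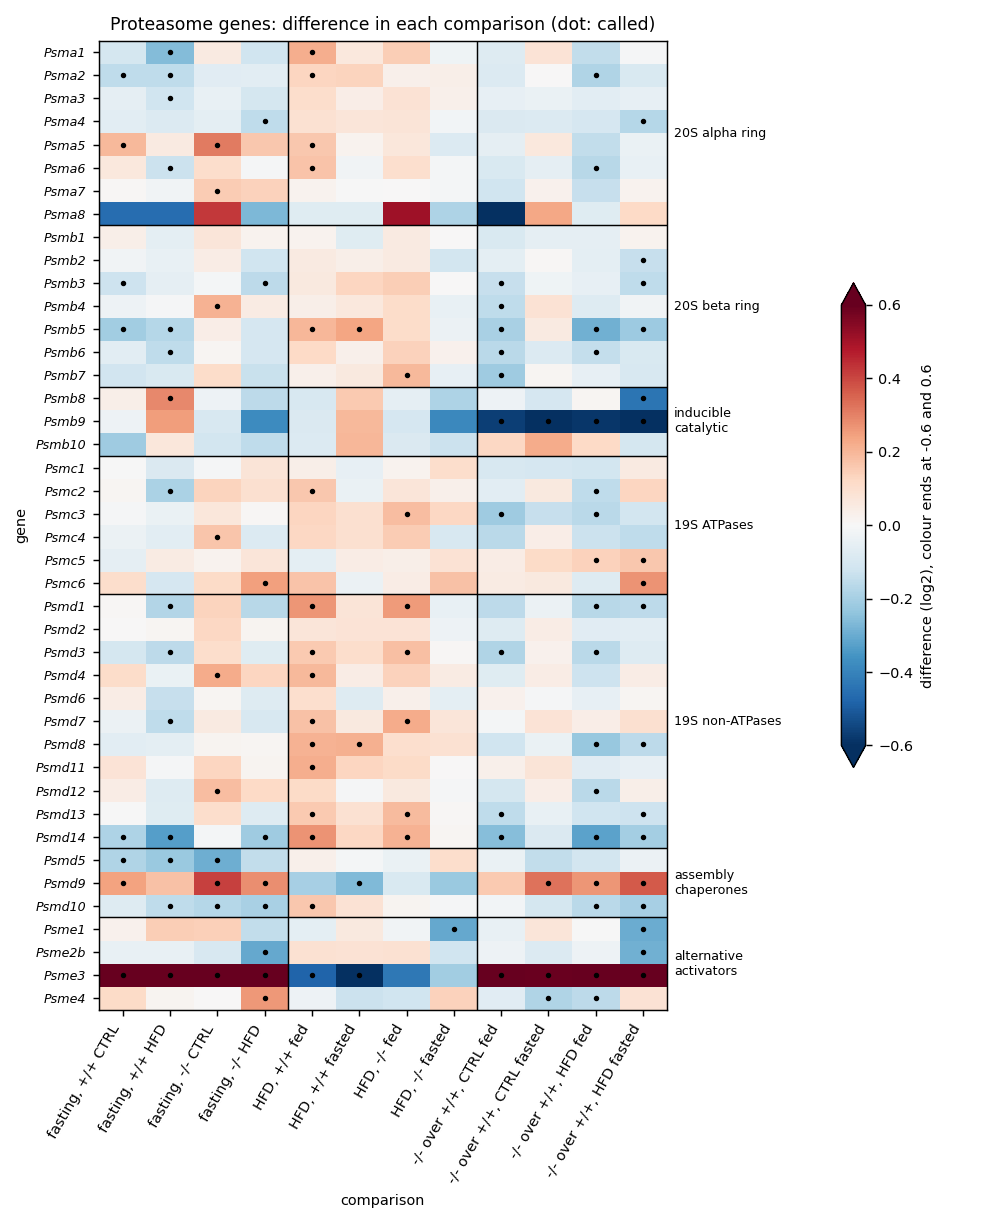
Difference on the log2 scale (colour, which ends at -0.6 and 0.6) of each of the 42 measured proteasome genes (rows, by role) in the 12 comparisons of 2 groups (columns), where +/+ and -/- stand for the p110α hep genotypes and a dot marks an adjusted p of at most 0.05. By its bright probe Psme3 was higher after fasting and in p110α hep-/- mice. Psmb9 was lower in p110α hep-/- mice. In fed mice 33 of 42 genes were higher on HFD in p110α hep+/+ mice. On HFD 36 of 42 were lower in fed p110α hep-/- mice. Signs over all genes were not counted beside these. With median centring and the 75th percentile, 16.7% and 11.9% were called higher in the first comparison (11.1% and 11% of all genes). In the second, 16.7% and 14.3% were called lower (15.3% and 14.8%).

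The α ring of the 20S core has 7 standard subunits and the germ cell subunit Psma8. Mean levels over the 8 groups were 13.12 for Psma1, 14.14 for Psma2, 14.09 for Psma3, 14.29 for Psma4, 13.34 for Psma5, 14.03 for Psma6 and 14.12 for Psma7. Psma8, at 7.39, was dim, and its differences of -0.65 to 0.51 had standard errors of 0.28 to 0.32. Psma2 was called higher in 1 comparison and lower in 3, Psma6 in 1 and 2, Psma3 in 0 and 1, Psma4 in 0 and 2, and Psma7 in 1 and 0.

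Psma5 (α5) rose on fasting on CTRL diet in both genotypes. In p110α hep+/+ mice its level went from 13.00, 13.25 and 13.28 (lowest, median and highest of 6 mice) in fed to 13.28, 13.42 and 13.47 in fasted mice, and in p110α hep-/- mice from 13.04, 13.13 and 13.30 to 13.30, 13.47 and 13.81. The fed and fasted arrays of each genotype did not overlap, though the highest fed and lowest fasted arrays nearly met. The differences were 0.19 (SE 0.06, adjusted p = 0.0135, limma) and 0.31 (SE 0.06, adjusted p = 0.00011). Psma5 was also 0.16 higher on HFD in fed p110α hep+/+ mice, a call that was lost with median centring (0.12) and the 75th percentile (0.10).

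Psma1 (α6) fell on fasting in p110α hep+/+ mice on HFD, from 13.24, 13.35 and 13.45 to 12.99, 13.07 and 13.20. Every fasted array was below every fed one, and the difference was -0.26 (SE 0.06, adjusted p = 0.00168, limma). It was called in 1 other comparison, with 0.22 on HFD in fed p110α hep+/+ mice, which became 0.18 with median centring and 0.14 with the 75th percentile and was not called with either.

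Among the constitutive β subunits, mean levels were 12.74 for Psmb1, 10.44 for Psmb2, 14.17 for Psmb3, 14.78 for Psmb4, 13.10 for Psmb5, 14.83 for Psmb6 and 12.58 for Psmb7. Psmb2 was called lower in 1 comparison, Psmb3 lower in 4, and Psmb4 higher in 1 and lower in 1. Psmb2 has 3 probes, and the dimmest of them, designed on another transcript, rose on fasting in all 4 settings (0.40, 0.32, 0.50 and 0.38), where the brightest one gave -0.12 to 0.04 with no call. In fed mice on CTRL diet 5 of these 7 genes were lower in p110α hep-/- mice, with differences of -0.14 to -0.21 for Psmb3, Psmb4, Psmb5, Psmb6 and Psmb7 (10.7% of all genes). With either of the other scalings 2 of the 7 were called.

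Psmb5 (β5), which carries the chymotrypsin-like activity, gave the widest differences among the catalytic subunits of the constitutive core. In p110α hep+/+ mice its level lay at 13.00, 13.16 and 13.28 (fed, CTRL), 12.88, 12.96 and 13.03 (fasted, CTRL), 13.10, 13.41 and 13.52 (fed, HFD) and 13.11, 13.22 and 13.28 (fasted, HFD). The values of p110α hep-/- mice were 12.85, 12.99 and 13.06 (fed, CTRL), 12.84, 13.01 and 13.29 (fasted, CTRL), 13.06, 13.08 and 13.11 (fed, HFD) and 12.85, 12.99 and 13.08 (fasted, HFD). The p110α hep-/- groups had medians of 12.99 to 13.08. Medians of p110α hep+/+ mice were higher in both HFD groups and in fed mice on CTRL diet (13.16), but not in fasted mice on CTRL diet (12.96). In fasted p110α hep+/+ mice HFD raised Psmb5 by 0.24 (SE 0.06, adjusted p = 0.0048, limma), with no overlap, and in fasted mice on HFD p110α hep-/- mice differed by -0.22 (SE 0.06, adjusted p = 0.00656), again with no overlap. Psmb5 was also called lower in fed p110α hep-/- mice (-0.19 on CTRL diet and -0.29 on HFD) and on fasting in p110α hep+/+ mice (-0.21 and -0.17), and higher on HFD in fed p110α hep+/+ mice (0.20). The fasting differences became -0.13 and -0.09 with median centring and -0.12 and -0.11 with the 75th percentile, and were not called with either. The HFD differences became 0.13 in fed and 0.14 in fasted mice with the 75th percentile and were not called, while the 3 genotype calls were kept with both scalings.

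Psmb6 (β1), with caspase-like activity, lay between 14.57 and 15.10 over all arrays. Its median was highest in fed p110α hep+/+ mice on HFD (14.92, 14.99 and 15.10) and lowest in fed and fasted p110α hep-/- mice on CTRL diet and in fasted ones on HFD, at 14.74 to 14.75. It was called lower in 3 comparisons: on fasting in p110α hep+/+ mice on HFD (-0.15, with no overlap) and in fed p110α hep-/- mice on CTRL diet (-0.16) and HFD (-0.14). With median centring these became -0.07, -0.07 and -0.07 and none was called with either other scaling. Psmb7 (β2), with trypsin-like activity, lay between 12.26 and 12.82, and its groups overlapped in every comparison. It was called lower in fed p110α hep-/- mice on CTRL diet (-0.21) and higher on HFD in fed p110α hep-/- mice (0.19), the latter not called with median centring (0.16).

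**Figure D3:**
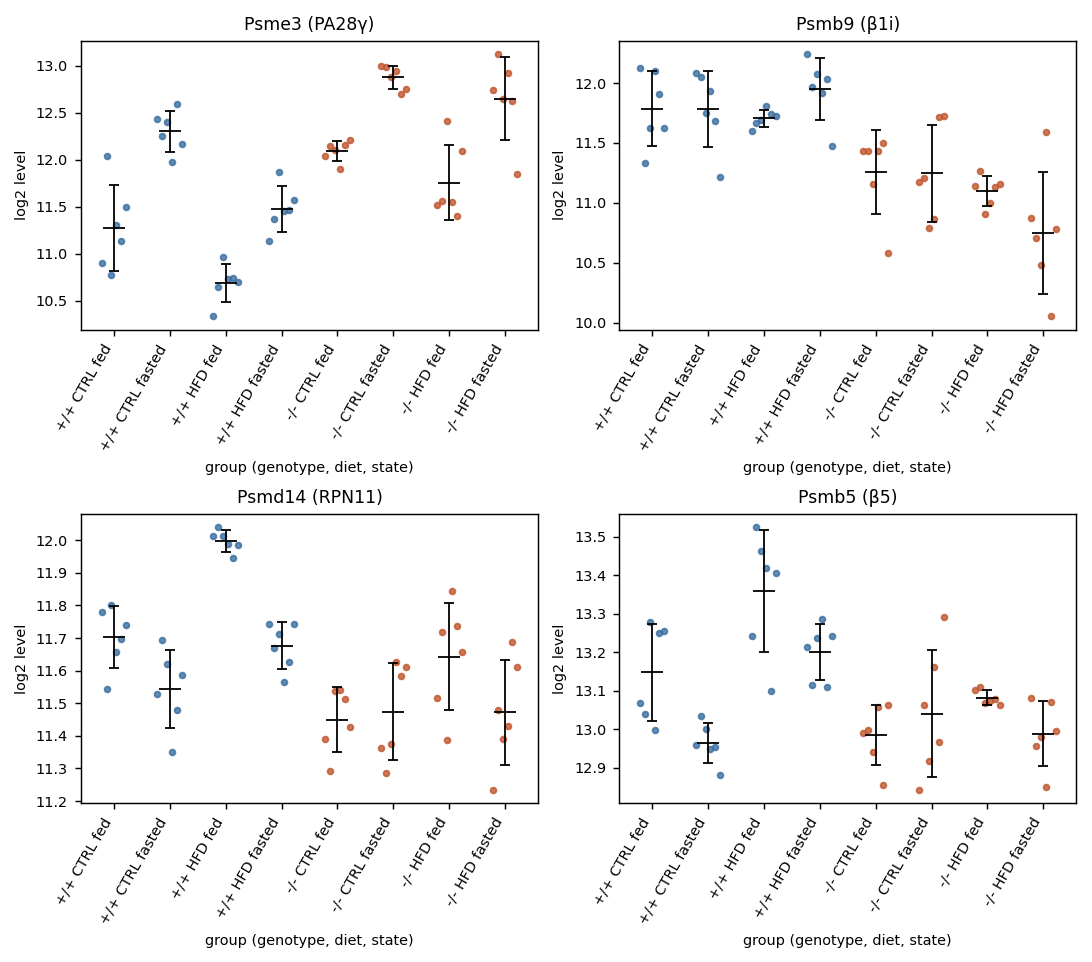
Log2 level of Psme3, Psmb9, Psmd14 and Psmb5 (y axes) on each array (point) in the 8 groups (x axis, p110α hep genotype, diet and state), with the group mean and SD over 6 mice as bars. By its bright probe Psme3 was lowest in fed p110α hep+/+ mice on HFD and highest in fasted p110α hep-/- mice on CTRL diet. Psmb9 was lower in all p110α hep-/- groups, and Psmd14 and Psmb5 were highest in fed p110α hep+/+ mice on HFD.

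The inducible subunits did not move as a set. Psmb9 (β1i) was lower in p110α hep-/- mice in all 4 states, Psmb8 (β5i) in 1, and Psmb10 (β2i) in none. Psmb9 of p110α hep+/+ mice lay at 11.33, 11.77 and 12.12 (fed, CTRL), 11.22, 11.84 and 12.08 (fasted, CTRL), 11.60, 11.71 and 11.81 (fed, HFD) and 11.47, 12.00 and 12.24 (fasted, HFD). Those of p110α hep-/- mice were 10.58, 11.43 and 11.50 (fed, CTRL), 10.79, 11.19 and 11.72 (fasted, CTRL), 10.90, 11.14 and 11.26 (fed, HFD) and 10.05, 10.75 and 11.59 (fasted, HFD). The genotypes were separate in fed mice on HFD and overlapped in the other 3 states. The differences were -0.56 (SE 0.17, adjusted p = 0.0115, limma) and -0.63 (SE 0.16, adjusted p = 0.00283) in fed and fasted mice on CTRL diet, and -0.58 (SE 0.17, adjusted p = 0.0058) and -1.21 (SE 0.17, adjusted p = 4.05e-07) on HFD. The genotype difference in fasted mice was not shown to vary with diet (-0.58, 95% interval -1.05 to -0.11, adjusted p = 0.138), and neither fasting nor diet gave a call. Within washing batches 1 and 2 taken alone, the 4 differences were -0.79 and -0.32, -0.65 and -0.59, -0.61 and -0.56, and -1.10 and -1.31, of which the last pair was called in both batches and the others in neither.

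Psmb8 lay at 11.40, 11.53 and 11.98 in fasted p110α hep+/+ mice on HFD, above the 11.10, 11.30 and 11.38 of the fed ones on every array. This rise was 0.29 (SE 0.10, adjusted p = 0.0208, limma). In fasted p110α hep-/- mice on HFD it lay at 10.82, 11.07 and 11.72, which overlapped with p110α hep+/+ mice, with a difference of -0.44 (SE 0.11, adjusted p = 0.00108). In the other 5 groups it lay between 11.03 and 11.62, and the remaining differences were -0.18 to 0.16. Psmb10 lay between 13.13 and 14.26 over all arrays, and its group medians were 13.68 to 14.07.

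The other genes of this branch were taken from a list of 11 genes of antigen presentation and the interferon response. Loss of p110α lowered 2 of them in fed mice on CTRL diet, 3 in fasted mice on CTRL diet, 5 in fed mice on HFD and 6 in fasted mice on HFD, and raised none in any of the 4, where 10.7%, 12.3%, 16.4% and 17.7% of all genes were called lower. Tap1, which shares its promoter with Psmb9, was lower, with differences of -0.49 (adjusted p = 0.00139, limma) in fasted mice on CTRL diet, -0.52 (adjusted p = 0.000788) in fed and -0.78 (adjusted p = 4.31e-06) in fasted mice on HFD, and its -0.10 in fed mice on CTRL diet was not called. B2m, the light chain of MHC class I, was lower in all 4 (-0.15, -0.39, -0.42 and -0.45), as was H2-K1, a heavy chain (-0.33, -0.32, -0.59 and -0.56). H2-K1 belongs to a family of near-identical genes, so its probe may read others too. The interferon-induced Gbp2 was lower in both states on HFD (-0.76 and -1.29). Irf1, Irf9, Nlrc5, Erap1 and Tapbp were not called for genotype.

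Psme1 and Psme2b were lower in p110α hep-/- mice when fasted on HFD. Psme2 is not named on the array, so PA28αβ was read by Psme1 and by Psme2b, which may share signal with Psme2. Psme1 (PA28α, mean level 13.90) had a difference there of -0.30 (SE 0.07, adjusted p = 0.000842, limma) and had differences of -0.04 to 0.07 in the other states. Psme1 was also lower on HFD in fasted p110α hep-/- mice (-0.31, SE 0.07, adjusted p = 0.00247). Its genotype difference in fasted mice was larger on HFD than on CTRL diet, with a difference between them of -0.37 (SE 0.10, adjusted p = 0.0197). Psme2b (mean level 14.27) was lower in the same state (-0.29, adjusted p = 0.00193) and on fasting in p110α hep-/- mice on HFD (-0.31, adjusted p = 0.00246).

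Markers of leukocytes and macrophages moved in part of the same comparisons. Of 11 measured markers, loss of p110α lowered 1 and raised 0 in fed mice on CTRL diet, lowered 4 and raised 2 in fed mice on HFD, and lowered 5 and raised 1 in fasted mice on HFD, with no call in fasted mice on CTRL diet. The lower ones on HFD included Cd74 (-0.90 and -0.94), H2-Aa (-1.11 and -1.02) and H2-Ab1 (-1.21 and -1.01), which dendritic cells, B cells and macrophages are known to carry, as well as Itgam (-0.47 and -0.61), which monocytes and granulocytes carry and which was also the marker lower on CTRL diet in fed mice (-0.64), and, in fasted mice, Cd68 (-0.34). Lyz2 had differences of -0.45 and -0.28 on HFD, and Adgre1, Clec4f and Csf1r of 0.03 to 0.26, none of them called. The higher ones were Ptprc (0.36 and 0.21) and, in fed mice, Cd3e (0.29). The mean log2 level of the 11 markers lay between 10.80 and 11.39 in fasted p110α hep-/- mice on HFD and between 11.07 and 11.93 in p110α hep+/+ mice, and Cd79a was not above the filter in any group. Of 8 hepatocyte markers, 2 or 3 were called higher and 0 or 1 lower in p110α hep-/- mice in each state, and their mean log2 level lay between 16.86 and 17.25 in p110α hep-/- and between 16.49 and 16.97 in p110α hep+/+ mice over all arrays. Of 4 bile duct markers 2 or 3 were called lower (means of 5.67 to 6.35 against 6.04 to 6.96). Among them Epcam was well above background on 0 or 1 of 6 arrays in each p110α hep-/- group, and Krt7 on 0 to 4. Both thus lay near the detection floor. Of 4 endothelial markers 1, 2, 1 and 4 were higher (9.76 to 10.07 against 9.53 to 9.97). Of 4 stellate cell markers 0 or 1 were higher and 1 lower. Of all genes, 10.7% and 12.3% were called lower in fed and fasted mice on CTRL diet, and 16.4% and 17.7% on HFD. The shares called higher were 11%, 12.5%, 16.6% and 19.2% in the same order. Whether the marker counts of any cell type exceeded these shares was not tested. The part of these cell types in the differences of proteasome genes was not tested either.

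**Figure D4:**
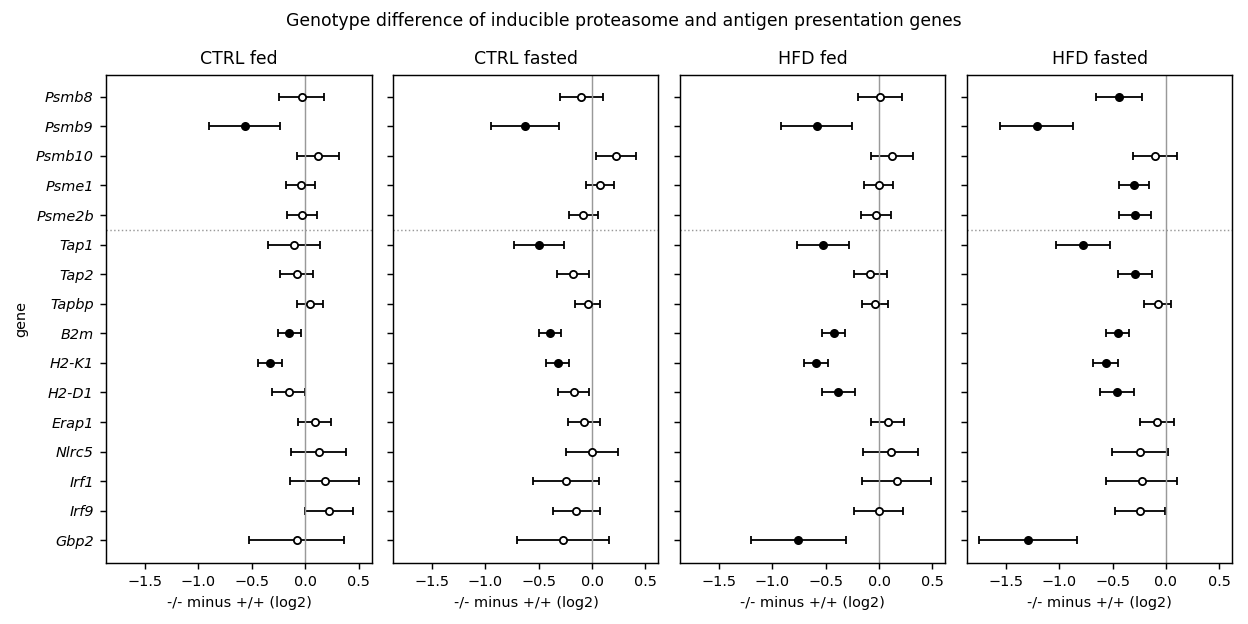
Difference between p110α hep-/- and p110α hep+/+ mice on the log2 scale (x axes, with 95% intervals) for 5 interferon-regulated proteasome genes (above the dotted line) and 11 genes of antigen presentation and interferon response (below it), in each of the 4 states. Filled points were called. Psmb9, B2m and H2-K1 were lower in all 4 panels, and 6 of the 11 listed genes in fasted mice on HFD.

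The 6 ATPases of the 19S base had mean levels of 14.74 for Psmc1, 13.24 for Psmc2, 15.04 for Psmc3, 12.44 for Psmc4, 12.06 for Psmc5 and 13.11 for Psmc6. They did not share a direction. Psmc5 (RPT6) was higher in p110α hep-/- mice on HFD, fed (0.14) and fasted (0.16), and Psmc6 (RPT4) in fasted ones (0.27) and on fasting in p110α hep-/- mice on HFD (0.25). The dimmer Psmc6 probe gave -0.21 for that genotype difference and 0.20 for that fasting difference. Psmc3 (RPT5) was lower in fed p110α hep-/- mice on both diets (-0.22 and -0.16) and higher on HFD in fed p110α hep-/- mice (0.19). Psmc2 (RPT1) was called higher once and lower in 2 comparisons, but with the median over its probes its fasting difference in p110α hep+/+ mice on HFD turned from -0.19 to 0.02 and its genotype difference in fed mice on HFD from -0.15 to 0.00. Psmc4 (RPT3) was called once, 0.17 higher on fasting in p110α hep-/- mice on CTRL diet.

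Of the 11 other subunits of the 19S particle, 8 rose on HFD in fed p110α hep+/+ mice (12.4% of all genes) and 5 in fed p110α hep-/- mice (5.91%), and 0 fell. With median centring these counts were 5 and 1, and with the 75th percentile 4 and 4. Loss of p110α in fed mice lowered 3 on CTRL diet (10.7%) and 5 on HFD (16.4%) and raised 0, with 1 and 3 lower under median centring and 2 and 2 under the 75th percentile. Mean levels were 12.83 for Psmd1, 12.69 for Psmd2, 14.44 for Psmd3, 14.36 for Psmd4, 12.84 for Psmd6, 11.66 for Psmd7, 12.50 for Psmd8, 11.03 for Psmd11, 13.46 for Psmd12, 13.23 for Psmd13 and 11.62 for Psmd14. Psmd4 (RPN10), a receptor for ubiquitin chains, was called higher in 2 comparisons, as was Psmd7 (RPN8), which was also lower in 1. Psmd3 (RPN3) was called higher in 2 and lower in 3, Psmd12 (RPN5) in 1 and 1, and Psmd11 (RPN6) higher in 1.

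Psmd14 (RPN11), the metalloprotease that cuts ubiquitin chains off substrates, was called in 8 of 12 comparisons. In p110α hep+/+ mice its level lay at 11.55, 11.72 and 11.80 (fed, CTRL), 11.35, 11.56 and 11.69 (fasted, CTRL), 11.95, 12.00 and 12.04 (fed, HFD) and 11.57, 11.69 and 11.74 (fasted, HFD). The p110α hep-/- mice gave 11.29, 11.47 and 11.54 (fed, CTRL), 11.29, 11.48 and 11.63 (fasted, CTRL), 11.39, 11.69 and 11.84 (fed, HFD) and 11.23, 11.45 and 11.69 (fasted, HFD). The fed p110α hep+/+ mice on HFD stood above every other array of the study. HFD raised Psmd14 by 0.27 in fed p110α hep+/+ mice (SE 0.06, adjusted p = 0.00115, limma), fasting on HFD changed it by -0.33 (SE 0.06, adjusted p = 4.69e-05), and fed p110α hep-/- mice differed by -0.26 on CTRL diet (SE 0.06, adjusted p = 0.00338) and -0.32 on HFD (SE 0.06, adjusted p = 0.000161), with no overlap in any of the 4. Within batches 1 and 2 the HFD difference was 0.36 and 0.20, the fasting difference -0.31 and -0.35, and the genotype differences -0.16 and -0.31 on CTRL diet and -0.30 and -0.34 on HFD. With the median over its probes in place of the brightest, these 4 values were 0.24, -0.27, -0.24 and -0.29. All 4 were called with both other scalings, while the call on fasting in p110α hep+/+ mice on CTRL diet was lost with each (-0.14 and -0.12).

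Psmd1 (RPN2), a scaffold of the base, rose on HFD in fed p110α hep+/+ mice from 12.59, 12.82 and 12.89 to 12.99, 13.07 and 13.13. No array overlapped, and the difference was 0.26 (SE 0.06, adjusted p = 0.000887, limma). Psmd1 also rose on HFD in fed p110α hep-/- mice (0.25), fell on fasting in p110α hep+/+ mice on HFD (-0.18) and was lower in p110α hep-/- mice on HFD, fed (-0.17) and fasted (-0.16), 3 calls that were lost with the 75th percentile. Psmd13 (RPN9) rose on HFD in fed p110α hep-/- mice from 13.02, 13.09 and 13.13 to 13.14, 13.26 and 13.33, with no overlap and a difference of 0.19 (SE 0.05, adjusted p = 0.0106), which was 0.15 and no longer called with median centring. It was also higher on HFD in fed p110α hep+/+ mice (0.16), and lower with loss of p110α in fed mice on CTRL diet (-0.15) and fasted mice on HFD (-0.12), and each of its 4 calls was lost with at least 1 of the other scalings.

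Psmd8 (RPN12) rose on HFD in fasted p110α hep+/+ mice from 12.35, 12.44 and 12.50 to 12.57, 12.62 and 12.83. It lay at 12.39, 12.50 and 12.56 in fasted p110α hep-/- mice on HFD, below every p110α hep+/+ array of that state. The differences were 0.21 (SE 0.05, adjusted p = 0.00535, limma) and -0.16 (SE 0.06, adjusted p = 0.0291), the first of which was 0.14 with the 75th percentile. Psmd8 was also higher on HFD in fed p110α hep+/+ mice (0.21) and lower in fed p110α hep-/- mice on HFD (-0.23).

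Psmd5, Psmd9 and Psmd10 bear the Psmd name but code for chaperones that assemble the 19S base, and moved apart from one another. Mean levels were 10.07 for Psmd5, 10.53 for Psmd9 and 10.09 for Psmd10. Psmd9 (p27) was called higher in 6 comparisons and lower in 1. It lay at 10.28, 10.45 and 10.56 in fed p110α hep-/- mice on HFD and at 10.13, 10.17 and 10.26 in p110α hep+/+ mice, with no overlap and a difference of 0.26 (SE 0.08, adjusted p = 0.0123, limma). It was also higher in fasted p110α hep-/- mice on CTRL diet (0.32) and HFD (0.37), and on fasting in 3 of 4 settings (0.24, 0.41 and 0.28).

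In fasted p110α hep+/+ mice HFD lowered Psmd9, from 10.49, 10.63 and 10.72 to 10.12, 10.38 and 10.47. The arrays did not overlap, and the difference was -0.26 (SE 0.08, adjusted p = 0.019, limma). Psmd10 (gankyrin) fell on fasting in p110α hep-/- mice on HFD from 10.06, 10.14 and 10.20 to 9.82, 9.91 and 10.04, again with no overlap and a difference of -0.19 (SE 0.05, adjusted p = 0.00326). It was lower in 5 comparisons and higher in 1. Psmd5 was lower on fasting in 3 of 4 settings, with differences of -0.18 to -0.29, and its other differences were not called.

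Psme3, which codes for PA28γ, the nuclear activator that opens the core for proteins without ubiquitin, moved most. In p110α hep+/+ mice its level lay at 10.77, 11.22 and 12.05 (fed, CTRL), 11.98, 12.33 and 12.59 (fasted, CTRL), 10.33, 10.72 and 10.96 (fed, HFD) and 11.14, 11.46 and 11.87 (fasted, HFD). The levels of p110α hep-/- mice were 11.91, 12.13 and 12.21 (fed, CTRL), 12.70, 12.91 and 13.00 (fasted, CTRL), 11.40, 11.56 and 12.41 (fed, HFD) and 11.85, 12.69 and 13.13 (fasted, HFD). Each fasted group had a higher median than its fed counterpart, each p110α hep-/- group than its p110α hep+/+ counterpart, and each HFD group a lower one than its CTRL counterpart. Its range of group means was larger than that of 98.6% of all genes.

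By its bright probe, fasting raised Psme3 by 1.14 (SE 0.15, adjusted p = 7.4e-08, limma) and 0.80 (SE 0.14, adjusted p = 2.69e-05) in p110α hep+/+ mice on CTRL diet and HFD, and by 0.81 (SE 0.15, adjusted p = 3.6e-05) and 1.03 (SE 0.17, adjusted p = 6.97e-06) in p110α hep-/- mice. On HFD in p110α hep+/+ mice and on CTRL diet in p110α hep-/- mice the fed and fasted arrays did not overlap, and in the other settings they did. In fed p110α hep+/+ mice on CTRL diet, replicate 2 stood alone at 12.05, and in fasted p110α hep-/- mice on HFD, replicate 6 stood at 11.85, below the highest fed array, replicate 3 at 12.41.

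By this probe, loss of p110α raised Psme3 by 0.92 (SE 0.15, adjusted p = 1.94e-05, limma) in fed and 0.59 (SE 0.15, adjusted p = 0.00229) in fasted mice on CTRL diet, and by 0.97 (SE 0.15, adjusted p = 3e-06) in fed and 1.20 (SE 0.16, adjusted p = 9.55e-08) in fasted mice on HFD. The genotypes did not overlap in fasted mice on CTRL diet and in fed mice on HFD. HFD lowered it in p110α hep+/+ mice, with differences of -0.48 (adjusted p = 0.0134) when fed and -0.82 (adjusted p = 0.000128) when fasted, the latter with no overlap. The -0.43 and -0.21 of p110α hep-/- mice were not called (adjusted p = 0.0754 and 0.461), and the difference in the HFD effect between genotypes, 0.61 in fasted mice (95% interval 0.17 to 1.04), was not called either (adjusted p = 0.0892). None of the other interactions of Psme3 was called.

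These values rest on 1 probe. The other Psme3 probe, at a mean level of 7.96 and designed on another transcript, gave differences of -0.26 to 0.06 in the 12 comparisons, and was called lower on fasting on CTRL diet in both genotypes (-0.17 and -0.26), where the bright probe was higher. For genotype it gave -0.10, -0.19, -0.20 and -0.10, called in fasted mice on CTRL diet and fed mice on HFD, against the rise of the bright probe in all 4 states. With the median of both probes the fasting differences were 0.48, 0.35, 0.28 and 0.52 and the genotype differences 0.41, 0.20, 0.38 and 0.55, of which the 0.20, in fasted mice on CTRL diet, was no longer called. Within batches 1 and 2, the bright probe gave fasting differences of 0.90 and 1.36, 0.74 and 0.81, 0.85 and 0.83, and 1.44 and 0.57, of which only the last, in batch 2, was not called, and genotype differences of 0.74 and 1.04, 0.69 and 0.52, 0.87 and 1.15, and 1.57 and 0.92, of which 0.52 was not called.

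Psme4 (PA200), an activator known from DNA repair and histone turnover, had a mean level of 12.71. It was lower in p110α hep-/- mice when fasted on CTRL diet (-0.18) and fed on HFD (-0.16), and rose on fasting in p110α hep-/- mice on HFD (0.26).

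Where 2 differences were set against each other, few genes were called. Genotype and diet gave 0 of 42 with limma in fed mice (1.02% of all genes higher and 2.01% lower), also in every other setting run, with 0 higher and 1 lower at an unadjusted p under 0.05, and 1 higher and 1 lower in fasted mice (2.15% and 2.94%), namely Psme4 (0.27) and Psme1. Genotype and fasting gave 1 higher and 0 lower on CTRL diet (1.76% and 2.21%), Psmb4 at 0.24 (adjusted p = 0.0207, limma, and 0.053 with median centring), and 2 higher and 0 lower on HFD (1.72% and 1.76%), Psmc2 at 0.28 and Psmc6 at 0.35. Diet and fasting gave 0 with limma in p110α hep+/+ mice (0.859% and 1.5%), with 1 higher and 5 lower at an unadjusted p under 0.05 and 1 lower with normexp or the 75th percentile, and in p110α hep-/- mice 1 higher (3.73%) and 1 lower (4.27%), Psme4 at 0.26 and Psmd1 at -0.30. Psmb4 (β7) had separate arrays in 1 genotype. In fed p110α hep-/- mice on CTRL diet it lay at 14.57, 14.63 and 14.70 and in fasted ones at 14.71, 14.88 and 15.06, with no overlap, while p110α hep+/+ mice lay at 14.67, 14.78 and 14.89 and at 14.71, 14.76 and 14.85.

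Subunits and assembly factors with other names were read from a list of 11, of which 10 were measured. Of these, 3, 4, 3 and 5 were lower with loss of p110α in fed and fasted mice on CTRL diet and in fed and fasted mice on HFD, and 0, 0, 0 and 1 higher, beside the same shares of all genes called lower (10.7%, 12.3%, 16.4% and 17.7%). Pomp, the chaperone that matures the 20S core, was lower in all 4 (-0.29, -0.22, -0.19 and -0.28), as was Psmg2, which helps to build the α ring (-0.22, -0.24, -0.27 and -0.37). Psmg3, another chaperone of the α ring, fell on fasting in all 4 settings (-0.14, -0.14, -0.27 and -0.26). Usp14, a deubiquitinase on the 19S particle, was lower in fed p110α hep-/- mice (-0.25 and -0.28).

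Of 8 measured genes around NRF1, the factor that drives proteasome genes when proteolysis falls short, 4 rose and 1 fell on fasting in p110α hep+/+ mice on CTRL diet, 2 and 1 on HFD, and in p110α hep-/- mice 3 and 2 on CTRL diet and 1 and 0 on HFD. Of all genes, 16.0%, 13.8%, 16.4% and 14.0% rose and 16.6%, 14.8%, 19.2% and 14.7% fell in these settings. Nfe2l1, which codes for NRF1, rose by 0.49, 0.19 and 0.59 in the first 3 of these settings and was 0.04 in the last, and rose on HFD in fed mice of both genotypes (0.25 and 0.43). Ddi2, the protease that cuts NRF1, rose on fasting in all 4 (0.40, 0.30, 0.51 and 0.30) and was higher in p110α hep-/- mice in 3 of 4 states (0.18, 0.45 and 0.45). Nfe2l2, which codes for NRF2, fell on fasting in p110α hep+/+ mice (-0.28 and -0.89).

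Of 6 genes for ubiquitin and its activation, 1 rose and 3 fell, 0 rose and 1 fell, 1 rose and 2 fell, and 0 rose and 3 fell on fasting in the same order, and the shares of all genes just given apply to these and the next counts too. Uba6, an activating enzyme, fell in all 4 (-0.23, -0.45, -0.44 and -0.27). Of 7 ubiquitin receptors and shuttles, 2 rose and 0 fell, 0 rose and 2 fell, 2 rose and 0 fell, and 2 rose and 1 fell, and Zfand5, which stimulates the 26S proteasome, rose in 3 (0.45, 0.57 and 0.40). Of 3 ubiquitin ligases known from muscle atrophy, Fbxo21 rose in all 4 (1.45, 1.21, 1.02 and 0.68) and Fbxo32 in 3 (0.49, 0.55 and 1.05).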

How the data were processed

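Liver RNA of 48 mice (200 ng labelled, 600 ng of cRNA hybridised) was read on one-colour Agilent mouse arrays with Feature Extraction 10.10.1.1, which the authors deposited as spot intensities without normalization between arrays. The authors also deposited a table of log2 values, made from median signals that were filtered, corrected for the washing bath and quantile normalized. That table served as an alternative here. Samples were grouped by their labels, 6 mice in each of 8 groups, so p-values measure the spread between mice. Array coordinates are those of mm9 and are not printed, and promoters were taken from RefSeq.

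The median signal was put on the log2 scale, outlier spots were left out and spots of a probe averaged. Probes well above background on at least 5 of 6 arrays of 1 or more groups were kept (30793 of 56605), and each gene was read by its brightest probe. The washing batch was removed while protecting the groups, arrays were quantile normalized, and the 8 group means were fitted across all probes with limma 3.58.1 (statmod 1.5.0, R 4.3.3) with array weights, followed by Benjamini-Hochberg adjustment. The fit gave 12 comparisons of 2 groups and 6 interactions. It was tried first on simulated data with changes placed only in fed p110α hep-/- mice on HFD. There it was read for the genotype effect in fed mice on HFD, its interaction with diet, and fasting in p110α hep+/+ mice on CTRL diet. The other comparisons and interactions were not simulated. The design follows the study's methods, except that its fold threshold of 1.5 was an alternative. The other alternatives were another signal, background correction, centring, filter, treatment of batch, slide or replicate number, no weights, the median over probes, each washing batch alone and 1 array left out. The number of arrays limits the precision.

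All proteasome genes are given with a level and their calls. Values by group are given for Psmb5 to Psmb10 and, in each comparison, for the 2 largest rises and 2 largest falls among called genes whose groups did not overlap, to which Psmb4 was added after its values were seen. Other genes come from fixed lists, of which 1 gene is not reported here. Members, lists and the array left out were chosen with earlier results of these data known. Protein sequences were not used here.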

Additional observations from a re-analysis of the deposited data

Results flagged for a closer look

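Among 168 groups of 6 arrays screened, for 21 genes and summaries, 4 held an array whose gap to the next one, divided by the range of the group, was above Dixon's critical value at the 95% level, where 8.4 would be flagged by chance at 1 in 20. Psma5 in fed p110α hep-/- mice on HFD had replicate 4 at 13.35, above the next array at 13.23, with a ratio of 0.743. Psmb10 in fasted p110α hep+/+ mice on HFD had replicate 6 at 13.57, below the next at 13.84, with a ratio of 0.705. Psmc2 in fed p110α hep-/- mice on HFD had replicate 4 at 13.43, above the next at 13.21, with a ratio of 0.688. Psmd13 in fed p110α hep+/+ mice on CTRL diet had replicate 2 at 13.13, below the next at 13.22, with a ratio of 0.679.

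An interaction was called in limma for 7 tests of 6 genes. By interaction and direction, 0 to 4.76% of proteasome genes were called, against 0.859% to 4.27% of all genes. With median centring none of those below for Psmb4, Psmc2, Psmc6 and Psme4 was called higher. The fasting effect on CTRL diet was higher in p110α hep-/- than in p110α hep+/+ mice for Psmb4 (0.24, adjusted p = 0.0207), and on HFD for Psmc2 (0.28, adjusted p = 0.0488) and Psmc6 (0.35, adjusted p = 0.0382). For Psmc6 the dimmer probe gave fasting effects on HFD of 0.20 and 0.19 in p110α hep-/- and p110α hep+/+ mice. For Psmc2 the fasting effect on HFD in p110α hep+/+ mice turned direction with the median over its probes. The genotype difference in fasted mice was lower on HFD than on CTRL diet for Psme1 (-0.37, adjusted p = 0.0197) and higher for Psme4 (0.27, adjusted p = 0.0439). The fasting effect in p110α hep-/- mice was lower on HFD than on CTRL diet for Psmd1 (-0.30, adjusted p = 0.0334) and higher for Psme4 (0.26, adjusted p = 0.0481).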

How the results depend on the processing

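Of 288 counts of calls under an alternative (18 comparisons, 16 alternatives), 191 stayed within 1.5 times of the value in the report and 97 did not. All 119 calls were kept with the stricter filter, 116 with normexp, with the batch as a term, with the slide as a block or with the deposited log2 values, 117 without 1 array, 104 with the replicate block, 100 without batch correction, 96 without array weights, 95 with the median over probes, 81 without a filter, 74 with the 75th percentile, 72 with median centring, 29 and 24 in washing batches 2 and 1 alone (3 mice a group) and 11 with a fold over 1.5. The directions of 2 calls turned, both for Psmc2 with the median over probes (0.02 and 0.00). Counts below add calls in both directions. The causes were not tested, except that batches alone hold fewer samples. All measured proteasome genes were above background on every array, so signal over background limited only Psmb11 and the dim Psma8.

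For fasting in p110α hep+/+ mice on CTRL diet the counts that moved were 5 without a filter, 1 and 4 in batches 1 and 2 alone and 1 with a fold over 1.5. On HFD they were 6 with the 75th percentile, 7 with median centring, 9 without a filter, 3 and 3 in the batches and 1 with the fold. For fasting in p110α hep-/- mice on CTRL diet they were 23 with either scaling, 4 in batch 1 and 1 with the fold, and on HFD 1 and 0 in the batches and 1 with the fold.

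For diet in fed p110α hep+/+ mice the counts were 6 with the 75th percentile, 8 with median centring, 10 without a filter, 3 and 0 in batches 1 and 2 and 0 with a fold over 1.5. In fasted p110α hep+/+ mice they were 7 with the 75th percentile, 1 and 2 in the batches and 1 with the fold. In fed p110α hep-/- mice they were 1 with median centring, 3 without a filter, 4 without batch correction or weights, 1 and 0 in the batches and 0 with the fold. In fasted p110α hep-/- mice they were 3 with either scaling, 2 with the slide as a block or without weights, 0 in batch 1 and 0 with the fold.

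For genotype in fed mice on CTRL diet the counts were 7 with the 75th percentile, 5 with median centring or without weights, 6 without a filter, 1 and 4 in the batches and 1 with the fold. In fasted mice on CTRL diet they were 7 with normexp, 0 in batch 2 and 2 with the fold. In fed mice on HFD they were 9 with either scaling, 10 without a filter, 4 and 2 in the batches and 1 with the fold. In fasted mice on HFD they were 3 and 8 in the batches and 2 with the fold.

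For the interaction of genotype and diet in fasted mice, 1 call was left with the 75th percentile, without a filter, without batch correction, with batch as a term, without weights and with the median over probes, and 0 in either batch or with the fold. For genotype and fasting, 0 calls on CTRL diet were left with median centring, without a filter, in either batch or with the fold. On HFD 1 was left with the 75th percentile, batch as a term, the deposited values or the replicate block, and 0 with median centring, without a filter, batch correction or weights, with the median over probes, in either batch or with the fold. For diet and fasting in p110α hep+/+ mice 1 was called with the 75th percentile or normexp. In p110α hep-/- mice 5 were called with the 75th percentile, 1 without batch correction, with batch as a term, the deposited values, the replicate block or the median over probes, and 0 without a filter, in either batch or with the fold.

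The labels do not say whether replicate numbers pair the mice. Same-numbered arrays of different groups had deviations that correlated at 0.018 on average, from -0.35 to 0.34, against -0.003 for arrays of other numbers. Such averages cannot exclude a pairing. With the replicate block, 104 of 119 calls were kept and 3 added, and only the counts of 2 interactions moved by over 1.5 times, to 1 each.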
